A study of Mus musculus with 8 samples.

Results

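Lysosomal hydrolases, their activators and the proteins of the lysosomal membrane were examined in bone marrow-derived macrophages (BMDMs), together with the receptors that sort them. The 41 genes were named by function, leaving out the proton pump and the cathepsins other than Ctsa, which encodes cathepsin A. The rule uses no measured value, although earlier results of these data were known when the set was proposed. Of these, 40 were listed in the table of 23761 genes, and all 40 passed a minimum mean of 1 FPKM (a level scaled for transcript length and sequencing depth), as 10920 genes did. Psap, which encodes prosaposin, was not analysed here.

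The study asked how macrophage gene expression differs when myeloid cells lack KLF2, a zinc finger transcription factor. LysM mice carried LysM Cre/Cre, that is Cre recombinase in the lysozyme gene Lyz2, on both alleles. K2KO mice carried the same LysM Cre/Cre and KLF2 flox/flox, so Cre and the change at Lyz2 were shared by both groups, and deletion depended on Cre activity in each cell. Marrow of 4 mice of each genotype, 3 months old, was cultured in medium conditioned by L929 fibroblasts, giving 8 libraries that the labels mark as vehicle without naming it. They are written here LysM0 to LysM3 and K2KO0 to K2KO3, with the numbers that end the columns of the table, which are not those of the sample titles.

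Lysosomal hydrolases are made in the endoplasmic reticulum, marked with mannose 6-phosphate in the Golgi and carried to the lysosome by mannose 6-phosphate receptors. In the lysosome they take apart glycans, sulfated polysaccharides, lipids and proteins in sequence, and loss of one enzyme leaves its substrate stored. Macrophages hold many lysosomes because they digest what they engulf. Many lysosomal genes share a promoter element around the E-box CACGTG that the transcription factor TFEB and its relatives TFE3 and MITF can bind.

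Promoter windows from RefSeq (GRCm38.p6), from 250 bases before to 50 bases after the gene start, were found for 34 of the 41 named genes. CACGTG, which reads the same on both strands, was in the windows of 10 of them (29.4%) and of 2187 of 27025 gene symbols with a RefSeq window (8.09%). The longer TCACGTG, searched on both strands and containing the first motif, was in 10 lysosomal windows as well and in 4.29% of all symbols. The stretches below belong to Glb1 and Gla, the 2 genes with the motif that were differentially expressed, and to Mcoln1 and Lamp1, which had the motif and were not and for which 1 stretch each is shown. Capitals mark CACGTG, and each stretch is written 5′ to 3′ on the strand of its gene.
Glb1, chr9:114401014-114401051, plus strand: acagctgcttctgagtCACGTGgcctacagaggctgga
Gla, chrX:134601211-134601248, minus strand: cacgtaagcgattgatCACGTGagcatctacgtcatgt
Gla, chrX:134601178-134601215, minus strand: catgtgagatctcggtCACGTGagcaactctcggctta
Mcoln1, chr8:3500458-3500495, plus strand: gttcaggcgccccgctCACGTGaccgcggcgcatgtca
Lamp1, chr8:13159117-13159154, plus strand: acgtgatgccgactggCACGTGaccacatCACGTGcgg
The Glb1 match began 48 bases before the gene start, and those of Gla began 227 and 194 bases before it. Mcoln1 held 1 further match and Lamp1 2 further ones, and the remaining matches were in Ctsa, Naglu, Gaa, Sgsh, Arsa and Igf2r. A match describes these letters and is not evidence of binding. Differential expression, described below, was found for 2 of the 10 listed genes with the motif, for 2 of the 23 without it and for 3 of the 7 without a window, beside 18.4% of all genes tested, and these small counts were not compared.

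Klf2, the targeted gene (chromosome 8, 72319033 to 72321656), was read as a check of the labels. It was at 44.1, 52.9, 64.7 and 72.8 FPKM in the LysM libraries and at 45.5, 41.6, 59.2 and 59.3 FPKM in those labelled K2KO. The groups overlapped, and the log2 fold change of -0.18 (SE, the standard error, 0.17, limma adjusted p = 0.460) did not exceed the spread between libraries. Which part of the gene is floxed is not given in the sources used here, so a level over the whole gene checks the labels only in part, and higher and lower below refer to the libraries labelled K2KO against the LysM libraries.

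Glb1, Npc1, Arsb, Asah1, Gla and Tpp1 were higher in the libraries labelled K2KO and Hgsnat was lower, where the limits, taken from the study's methods, were a limma adjusted p below 0.05 and a log2 fold change beyond 0.26 in either direction. That is 17.5% of the 40 genes, beside 18.4% of all genes tested. By direction, 6 of 40 were higher, beside 9.84% of all genes tested, and 1 of 40 was lower, beside 8.61%. Under this scaling and with every library in the fit, the share of lysosomal genes that changed was therefore close to that of the whole transcriptome. With a library left out, both shares moved. The lysosomal count ran from 2 of 40 (without LysM3, beside 3.09% of all genes) to 9 of 40 (without K2KO3, beside 26%). Without LysM1 it was 5 of 40, beside 6.74%. With every library, the median log2 fold change of the 40 genes was 0.03, beside 0.01 over all genes tested, with 22 above 0 and 18 below. The 33 genes that did not pass lay between -0.25 and 0.35 on the log2 scale, and 19 of them were within 0.1 of no difference.

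**Figure D1:**
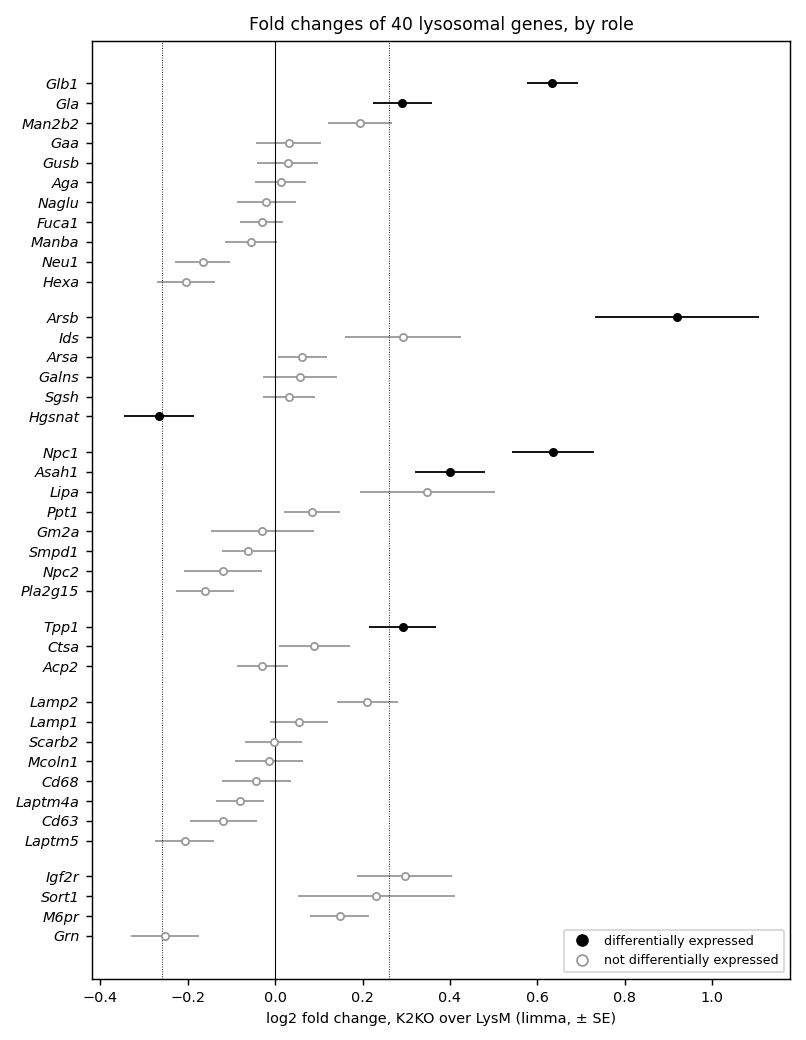
Log2 fold change (K2KO over LysM, limma on log2(FPKM + 0.1), bars give the standard error, 4 libraries a group) of the 40 listed genes by role, with dotted lines at the 0.26 limit and filled points for differentially expressed genes. Glb1, Npc1 and Arsb lie farthest to the right, Hgsnat lies just past the limit on the left, and no point is filled in the lower groups that run from Lamp2 to Laptm5 and from Igf2r to Grn.

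Most genes listed as glycosidases encode enzymes that remove sugars one at a time from glycoproteins, glycolipids and glycosaminoglycans. Of the 11 on this list 2 rose, beside 9.84% of all genes tested. Glb1, the beta-galactosidase (chromosome 9, 114401076 to 114474898, plus strand), was at 27.0, 29.1, 27.0 and 27.3 FPKM in LysM and at 42.4, 41.3, 41.9 and 46.2 FPKM in the libraries labelled K2KO. The groups were far apart and each was tight. The means were 27.6 ± 1.02 and 42.9 ± 2.21 FPKM (SD, n = 4), a ratio of 1.56 and a log2 fold change of 0.63 (SE 0.06, limma adjusted p = 0.000664). Glb1 passed in all 12 other settings and all 8 fits with a library left out. It shares its strand and part of its locus with Tmppe, which averaged 4.36 and 4.93 FPKM, and reads from their shared stretch cannot be told apart. Glb1 lies 7.97 Mb from Rpl29, a ribosomal protein gene whose listed FPKM ran from 0 to 0.253 in LysM and from 337 to 435 under the K2KO label, and whether that position bears on Glb1 was not tested.

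Gla, the alpha-galactosidase that clears globotriaosylceramide (chromosome X, 134588149 to 134601125, minus strand), was at 73.1, 75.1, 71.3 and 67.8 FPKM in LysM. In the libraries labelled K2KO it was at 80.9, 85.8, 95.7 and 89.6 FPKM. The groups did not overlap, but the gap between the nearest libraries was small beside the range of the K2KO group. The log2 fold change was 0.29 (SE 0.07, limma adjusted p = 0.0217). It fell to 0.25, under the fold limit, once libraries were corrected for GC content and length, and the adjusted p passed 0.05 when LysM2, LysM3, K2KO1 or K2KO2 was left out, at most 0.068. Gla passed in 9 of 12 other settings.

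The glycosidase with the highest level, Hexa, encodes the alpha subunit of beta-hexosaminidase and did not pass. It was at 1014, 1039, 1034 and 999 FPKM in LysM and at 814, 891, 904 and 942 FPKM in the libraries labelled K2KO, with a log2 fold change of -0.20 (limma adjusted p = 0.0577). Every K2KO value was below every LysM value. The log2 fold change of Hexa was -0.07 after the GC and length correction (limma adjusted p = 0.444). After quantile normalization it was 0.09 (limma adjusted p = 0.286). Man2b2, an alpha-mannosidase, was the other glycosidase with separate groups that did not pass, at 36.7 ± 3.23 against 41.9 ± 1.77 FPKM (SD, n = 4, limma adjusted p = 0.085). The beta-galactosidase works in a complex with the protective protein Ctsa and the sialidase Neu1. Their log2 fold changes were 0.09 (limma adjusted p = 0.438) and -0.17 (limma adjusted p = 0.0871), neither of which passed, and the difference of either from Glb1 was not tested. Gaa, Gusb, Fuca1, Manba, Aga and Naglu had log2 fold changes between -0.06 and 0.03.

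Enzymes that act on sulfated polysaccharides were the least abundant group. Of 6 genes 1 rose and 1 fell, beside 9.84% and 8.61% of all genes tested. Arsb, the arylsulfatase that desulfates dermatan and chondroitin sulfate (chromosome 13, 93771630 to 93943016, plus strand), had the largest fold change of the 40 genes and the lowest mean level. It was at 3.31, 3.68, 2.82 and 3.18 FPKM in LysM and at 6.59, 4.81, 9.17 and 5.08 FPKM in the libraries labelled K2KO. All K2KO values were higher, and they varied far more than the LysM values. The means were 3.25 ± 0.354 and 6.41 ± 2.001 FPKM (SD, n = 4), and the log2 fold change was 0.92 (SE 0.19, limma adjusted p = 0.0158), which the pseudocount slightly understates. Without LysM3 or K2KO0 the adjusted p was 0.0651 and 0.0518. Arsb passed in 9 of 12 other settings, and not without a filter, with ordinary least squares or with the GC and length correction joined to a replicate block.

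Hgsnat, the membrane enzyme that acetylates heparan sulfate before its next cleavage (chromosome 8, 25944453 to 25976753, minus strand), was the only one of the 40 genes that fell. It was at 19.8, 21.1, 19.2 and 21.1 FPKM in LysM and at 17.4, 18.8, 17 and 14.6 FPKM in the libraries labelled K2KO. The groups were separate by a small margin. The log2 fold change was -0.27 (SE 0.08, limma adjusted p = 0.0449), close to both limits, and Hgsnat passed in 2 of 12 other settings and in none of the 8 fits with a library left out, where the values ran from -0.32 to -0.20. Galns, Arsa and Sgsh differed by 0.03 to 0.06 on the log2 scale. Ids, the iduronate sulfatase, was at 8.02 ± 0.927 and 9.91 ± 1.70 FPKM (SD, n = 4), with a limma adjusted p of 0.140.

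Among 8 genes for lipid breakdown and sterol export, 2 rose, beside 9.84% of all genes tested. Npc1, the membrane protein that exports cholesterol from the lysosome, is on chromosome 18. It was at 33.8, 29.8, 27.5 and 25.5 FPKM in LysM and at 44.7, 50.4, 43.9 and 42.1 FPKM in the libraries labelled K2KO. The groups were well apart, at 29.2 ± 3.57 and 45.3 ± 3.58 FPKM (SD, n = 4), and the log2 fold change was 0.64 (SE 0.09, limma adjusted p = 0.00772). Npc1 passed in all 12 other settings and all 8 fits with a library left out, with log2 fold changes from 0.50 to 0.71. It overlaps Rmc1 on the opposite strand, which averaged 13.7 and 14.9 FPKM. Use of strand in the counting is not stated, so the level of Npc1 is uncertain by their shared stretch. Npc2, the soluble protein that hands cholesterol to NPC1, was much more abundant, at 817 ± 60.1 and 753 ± 68.6 FPKM (SD, n = 4), and its log2 fold change of -0.12 did not pass (limma adjusted p = 0.347) and was 0.15 after quantile normalization (limma adjusted p = 0.117). The difference between Npc1 and Npc2 was not tested.

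Asah1, the acid ceramidase (chromosome 8, 41340197 to 41374773, minus strand, 30.9 Mb from Klf2), was at 93.0, 86.6, 88.5 and 84.1 FPKM in LysM. In the libraries labelled K2KO it was at 117, 128, 121 and 100.5 FPKM. The groups did not overlap, K2KO3 being nearest to the LysM values. The log2 fold change was 0.40 (SE 0.08, limma adjusted p = 0.0149), and the adjusted p was 0.0586 without LysM3 and 0.0515 without K2KO2. Asah1 passed in 11 of 12 other settings, the exception being no filter. Lipa, the acid lipase that releases cholesterol from engulfed lipoproteins, had the widest spread of the abundant genes, at 535, 453, 459.8 and 379.9 FPKM against 524, 768, 580.0 and 476 FPKM. Its groups overlapped, and the log2 fold change of 0.35 did not pass (limma adjusted p = 0.132). Smpd1, Pla2g15, Ppt1 and Gm2a, which act on sphingomyelin, phospholipids, palmitoylated proteins and gangliosides, had log2 fold changes between -0.16 and 0.08.

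Of the peptidases and the acid phosphatase, 1 of 3 rose, beside 9.84% of all genes tested. Tpp1, a tripeptidyl peptidase (chromosome 7, 105744811 to 105752235, minus strand), was at 106, 98.0, 92.2 and 87.4 FPKM in LysM and at 115, 126, 119.6 and 109 FPKM in the libraries labelled K2KO. The highest LysM library lay just under the lowest K2KO library. The log2 fold change was 0.29 (SE 0.08, limma adjusted p = 0.0316), and Tpp1 passed in 2 of 8 fits with a library left out, those without LysM0 or K2KO3, with a highest adjusted p of 0.0904 without LysM3. It passed in 9 of 12 other settings, and the exceptions were those of Arsb. Ctsa overlaps Pltp on the opposite strand, which averaged 2592 FPKM in LysM and 1464 FPKM in the libraries labelled K2KO, and use of strand in the counting is not stated, so the level of Ctsa is uncertain. The same limit applies to Ppt1, which overlaps Cap1 on the opposite strand (177 FPKM in LysM and 172 FPKM under the K2KO label). It also applies to Galns, which overlaps Gm20388 on the opposite strand (23.2 FPKM in LysM and 19.6 FPKM under the K2KO label). The acid phosphatase Acp2 was at 34.0 ± 1.19 and 33.3 ± 1.73 FPKM (SD, n = 4).

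**Figure D2:**
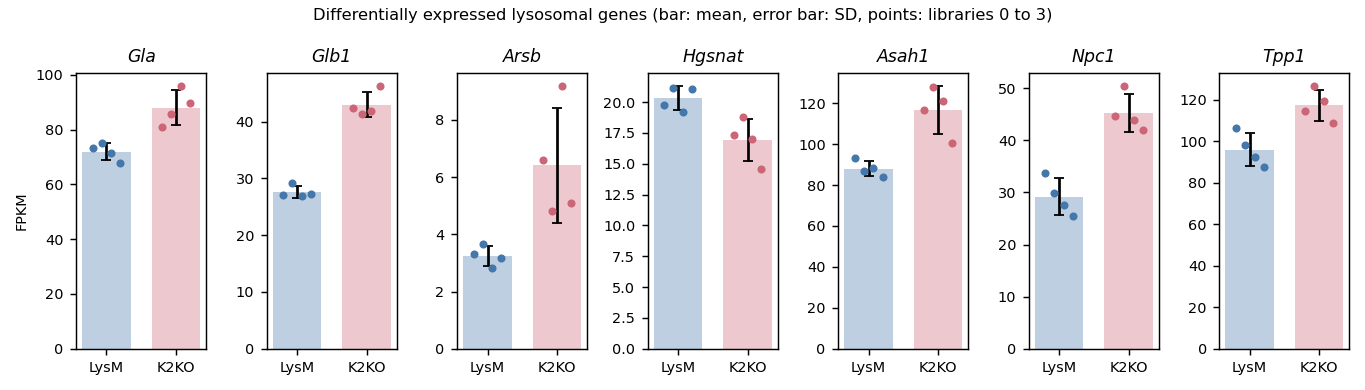
FPKM of the 7 differentially expressed lysosomal genes (linear axes from 0, bars are means of 4 libraries, error bars the SD, points single libraries). In each panel the points of LysM and K2KO do not overlap, with the widest gap beside the spread for Glb1 and the widest spread for Arsb in K2KO.

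The 8 genes listed as membrane proteins, apart from Npc1 and Hgsnat, were the most abundant group, and none passed. With limma, 2 of the 8 had an unadjusted p under 0.05, beside 4126 of all 10920 genes tested. None passed with ordinary least squares, beside 6.83% of all genes, and Lamp2 alone passed after quantile normalization, beside 14%. Cd68, a heavily glycosylated macrophage marker of late endosomes and lysosomes, was at 1941, 1942, 1683 and 1772 FPKM in LysM and at 1637, 1850.1, 1768 and 1862 FPKM in the libraries labelled K2KO. Lamp1, the main structural glycoprotein of the membrane, was at 1209.9, 1287, 1156 and 1192 FPKM in LysM and at 1219, 1327, 1239 and 1244 FPKM in the libraries labelled K2KO. The groups of both genes overlapped, with log2 fold changes of -0.04 (limma adjusted p = 0.714) for Cd68 and 0.05 (limma adjusted p = 0.572) for Lamp1. After quantile normalization these were 0.286 (limma adjusted p = 0.0592) and 0.294 (limma adjusted p = 0.0960), beyond the fold limit without passing on adjusted p. Lamp2, which also serves chaperone-mediated autophagy, was at 188, 188, 193 and 188 FPKM in LysM and at 230.0, 228, 228 and 193 FPKM in the libraries labelled K2KO. Of these, K2KO3 alone lay at the LysM level, and the log2 fold change of 0.21 did not pass (limma adjusted p = 0.0613) and was 0.03 after the GC and length correction (limma adjusted p = 0.713). Laptm5, a transmembrane protein of blood cells, was at 944 ± 52.3 and 817 ± 27.4 FPKM (SD, n = 4). Its groups were separate, with a log2 fold change of -0.21 (limma adjusted p = 0.0547). This was -0.10 after the GC and length correction (limma adjusted p = 0.298) and 0.08 after quantile normalization (limma adjusted p = 0.545). Mcoln1, the calcium channel TRPML1, and Scarb2, the receptor that carries glucocerebrosidase, were nearest to no difference, with log2 fold changes of -0.01 and 0.00.

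The sorting receptors and progranulin likewise had none of 4 genes past both limits, also with ordinary least squares, where 6.83% of all genes passed. With an unadjusted p under 0.05 by limma there were 2 of the 4, beside 4126 of all 10920 genes tested. M6pr and Igf2r, the cation-dependent and the cation-independent mannose 6-phosphate receptor, were at 118 ± 7.78 and 11.9 ± 1.75 FPKM in LysM and at 130.1 ± 6.19 and 14.6 ± 1.36 FPKM in the libraries labelled K2KO (SD, n = 4). Their log2 fold changes of 0.15 and 0.30 did not pass (limma adjusted p = 0.141 and 0.0785), and the groups of each gene overlapped. Grn, which encodes progranulin, was at 1783, 2011, 1909 and 1949 FPKM in LysM and at 1555, 1480.1, 1658 and 1739.6 FPKM in the libraries labelled K2KO. All K2KO values were lower, and Grn was the 1 gene of the 40 with an adjusted p under 0.05 (limma, 0.0480) whose log2 fold change, -0.25, was under the fold limit. For Grn the log2 fold change was -0.12 after the GC and length correction (limma adjusted p = 0.235). After quantile normalization it was 0.06 (limma adjusted p = 0.416). Sort1, the receptor sortilin that binds progranulin, was at 6.49 ± 1.72 and 7.49 ± 1.09 FPKM (SD, n = 4).

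**Figure D3:**
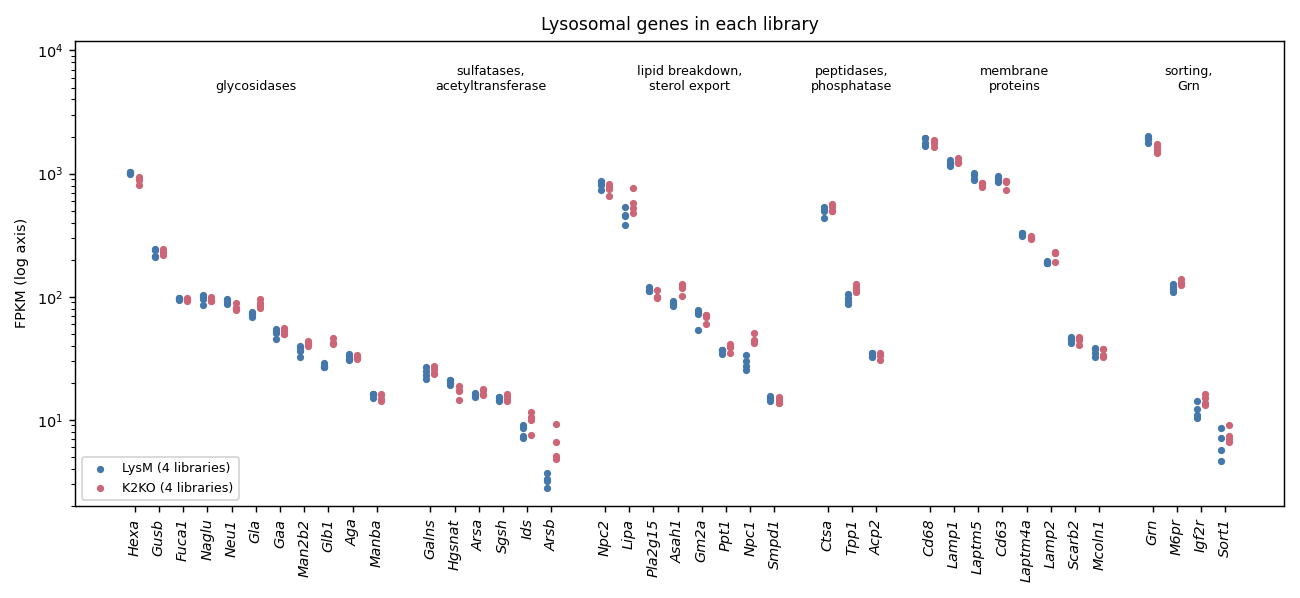
FPKM (log axis) of each of the 40 listed genes in each of the 8 libraries, ordered by level within each role. Grn, Cd68 and Lamp1 lie above 1000 FPKM on average, Arsb is lowest, and for 29 of the 40 genes the points of LysM and K2KO overlap.

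Counting separation alone, 11 of the 40 genes had groups that did not overlap, 7 higher and 4 lower, beside 12.9% and 10.2% of all genes tested. The 7 differentially expressed genes were all among the 11, and Man2b2, Hexa, Laptm5 and Grn were the others. The spread within a genotype was small for this set, with a median coefficient of variation of 5.12% in LysM and 6.45% in K2KO, beside 8.22% and 9.38% over all genes tested. On the FPKM scale, which is per length, 16 of the 40 genes averaged at least 100 FPKM, that is 40% of them beside 7.49% of all genes tested, and Cd68, Grn and Lamp1 were among the 59 genes at 1000 FPKM or more. Together the 40 genes made up 2.08% to 2.35% of all FPKM in the LysM libraries and 2.28% to 2.48% in the libraries labelled K2KO, ranges that overlapped.

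Level and base composition moved with the fold change across the whole table, and both are given here beside the lysosomal values. Of 818 genes at 100 FPKM or more, 28.2% were lower and 2.32% were higher, with a median log2 fold change of -0.20. The 16 lysosomal genes of that level had a median of -0.01, with 2 higher and none lower by limma. After quantile normalization, which removes such a difference between distributions, the median of these 16 was 0.25, beside -0.02 over all genes of that level. The median of the 40 was then 0.13, beside 0.00 over all genes. By limma, 8 of the 40 rose and none fell, beside 7.65% and 6.4% of all genes tested and 14% in either direction, with Ctsa and Lamp2 added and Hgsnat no longer passing. Across 10899 genes, which are not independent of each other, the difference was more negative where the longest transcript was richer in GC (Spearman's rho = -0.40), and across the 40 lysosomal genes rho was -0.43. The 6 genes that rose had a median GC content of 47.5%, the other 34 one of 51.9% and all genes tested one of 49.7%. After the GC and length correction, Glb1, Arsb, Asah1, Npc1, Tpp1 and Man2b2 were higher and none was lower, that is 6 of 40 beside 5.36% of all genes in that direction, 3.97% in the other and 9.33% in either. What part GC content or level had in the differences was not tested further.

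**Figure D4:**
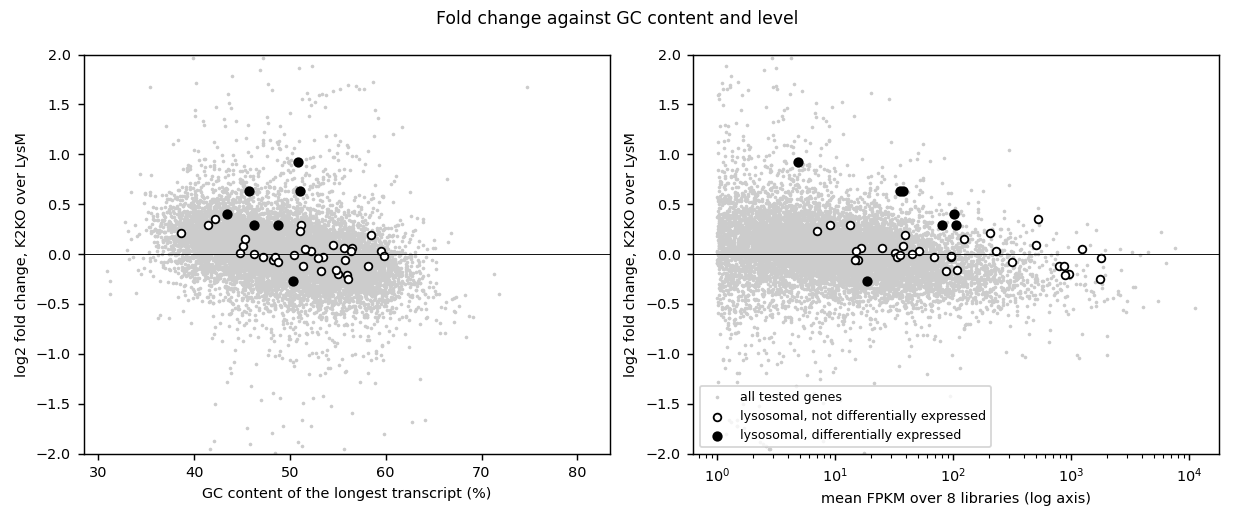
Log2 fold change (K2KO over LysM) against GC content of the longest transcript (left, percent) and against the mean FPKM of the 8 libraries (right, log axis), for all genes tested (grey) and the 40 lysosomal genes (circles, filled where differentially expressed). Fold changes of the grey points fall to the right in both panels, the filled circles above 0 lie at or left of 51.2% GC, and 83 genes beyond ±2 are outside the panels.

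The remaining lysosomal pathway was read from 4 further lists, drawn up by function when earlier results of these data were known. They held 83 genes, all tested, of which 19 were higher and 6 lower, beside 9.84% and 8.61% of all genes tested, with a median log2 fold change of 0.04. These counts were 8 and 4 after the GC and length correction, beside 5.36% and 3.97% of all genes. After quantile normalization they were 22 and 2, beside 7.65% and 6.4%. With a library left out, 3 (without LysM3) to 28 (without LysM0) of the 83 passed, beside 3.09% and 21.4% of all genes. Among 30 other hydrolases and cofactors, 4 rose and 5 fell. Man2b1, the main lysosomal alpha-mannosidase, went from 193 ± 9.04 to 399 ± 29.6 FPKM (SD, n = 4), while Ifi30, a thiol reductase for antigen processing, went from 233 ± 5.84 to 175 ± 11.9 FPKM (SD, n = 4). Dnase2a and Pld4, which degrade engulfed nucleic acids, had log2 fold changes of -0.29 and -0.39 (limma adjusted p = 0.0204 for each). Man2b1, Ifi30 and Dnase2a lie 12.8, 1.55 and 12.6 Mb from Klf2, in a stretch of 20 Mb on either side where 27.7% of 220 genes tested were differentially expressed. The nearest of the 40 genes, Aga, lies 18.8 Mb from Klf2, and whether closeness to the floxed gene has a part was not tested. With a library left out, Man2b1 and Ifi30 passed in all 8 fits, and Dnase2a and Pld4 in 3 of 8 each. Ifi30 did not pass after the GC and length correction, where its log2 fold change was -0.23 (limma adjusted p = 0.0752), or after quantile normalization, where it was -0.25, and neither did Pld4. Dnase2a did not pass after quantile normalization (-0.14). Among 22 other membrane proteins and transporters, 5 rose and none fell by limma. The 4 with the smallest p were Tmem106b, Cd164, the sialic acid exporter Slc17a5 and Lmbrd1, with log2 fold changes of 0.31 to 0.39, and the other was the amino acid transporter Slc36a1, with 0.34. The first 4 passed in 3, 3, 2 and 2 of 8 fits with a library left out, and none of them passed after the GC and length correction (limma adjusted p = 0.0769, 0.0576, 0.0610 and 0.137). Slc36a1 still passed after it (limma adjusted p = 0.0385), and Clcn7, a chloride transporter just under the fold limit without it, passed with it (limma adjusted p = 0.0387).

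Of 24 genes that tag and sort hydrolases, 8 rose and 1 fell, beside 9.84% and 8.61% of all genes tested. Gnptab, which encodes the subunits that attach the mannose 6-phosphate mark, was at 8.30, 7.93, 6.61 and 6.73 FPKM in LysM and at 10.01, 10.8, 10.1 and 11.1 FPKM in the libraries labelled K2KO. The groups were apart, and the log2 fold change of 0.51 (SE 0.09, limma adjusted p = 0.0110) passed in all 12 other settings and all 8 fits with a library left out. Vps35, Vps29 and Vps26a, the core of the retromer that returns sorting receptors to the Golgi, rose, with log2 fold changes of 0.47, 0.32 and 0.27 (limma adjusted p = 0.0129, 0.0198 and 0.0259). All 3 missed the limits after the GC and length correction, where 4 genes of the list were higher and 2 lower, beside 5.36% and 3.97% of all genes. Sorl1, a sorting receptor, and Gga2, an adaptor that loads mannose 6-phosphate receptors at the Golgi, had log2 fold changes of 0.52 and 0.33 (limma adjusted p = 0.0126 and 0.0176). Ap1s1, a subunit of the clathrin adaptor of the same step, had one of -0.36 (limma adjusted p = 0.0208), which did not pass after the GC and length correction (-0.16, limma adjusted p = 0.114) or quantile normalization (-0.21, limma adjusted p = 0.0568). With a library left out, Sorl1 and Vps35 passed in 7 of 8 fits, Gga2 in 4, Vps26a in 3, and Vps29 and Ap1s1 in 2 each. Vps35 lies 12.9 Mb from Klf2, inside the stretch described above.

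Of the transcription factors of the TFEB family, Tfec alone passed. Tfeb was at 41.2, 38.6, 33.4 and 35.6 FPKM in LysM and at 30.4, 37.0, 31.6 and 32.5 FPKM in the libraries labelled K2KO, groups that overlapped (log2 fold change -0.18, limma adjusted p = 0.160). Tfe3 was at 73.7 ± 1.36 and 63.5 ± 2.95 FPKM (SD, n = 4), with separate groups and a log2 fold change of -0.22 under the fold limit (limma adjusted p = 0.0274), but passed both limits after the GC and length correction, at -0.26 (limma adjusted p = 0.0358). Mitf had a log2 fold change of 0.15 (limma adjusted p = 0.373). Tfec, the family member found mainly in macrophages and related cells, was low, at 2.32, 2.50, 1.77 and 2.59 FPKM against 4.10, 4.79, 4.67 and 2.85 FPKM. It rose by 0.80 on the log2 scale (SE 0.18, limma adjusted p = 0.0203), with K2KO3 close to the LysM values, and passed in 4 of 8 fits with a library left out. Ppp3cb, a catalytic subunit of the phosphatase calcineurin that acts on TFEB, rose by 0.29 (limma adjusted p = 0.0139) and had 0.11 after the GC and length correction.

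**Figure D5:**
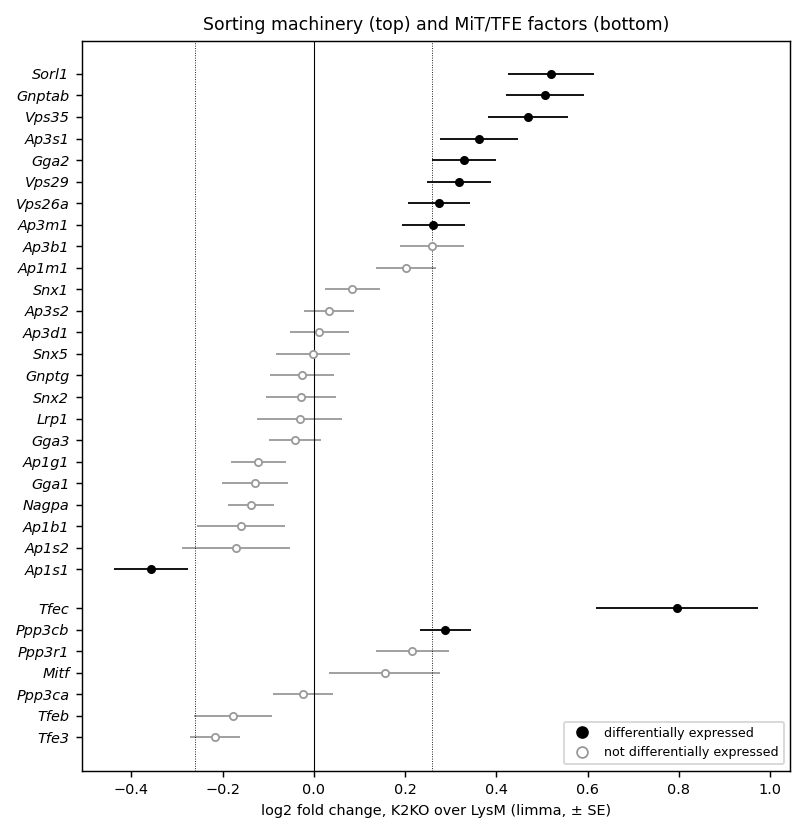
Log2 fold change (K2KO over LysM, limma, bars give the standard error, 4 libraries a group) of the 24 tagging and sorting genes (top) and of the MiT/TFE factors with calcineurin subunits (bottom), with dotted lines at the 0.26 limit. Sorl1, Gnptab and Vps35 lead the 8 filled points on the right, Ap1s1 is the filled point on the left, and Tfec stands above the other factors while Tfeb and Tfe3 lie below 0.

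The macrophage label was checked by markers. Csf1r and Adgre1, the growth factor receptor and the F4/80 antigen, averaged 524 and 433 FPKM in LysM and 526 and 439.6 FPKM in the libraries labelled K2KO. Of 10 macrophage markers, 1 was higher (Mertk, whose groups overlapped) and 2 were lower, beside 9.84% and 8.61% of all genes tested. The lower ones were Lyz2 and C1qa, and C1qa fell from 2685 ± 386 to 1338 ± 252 FPKM (SD, n = 4). Lyz2 averaged 18.6 FPKM in LysM and 13.2 FPKM in K2KO. It carried Cre on both alleles in both groups, so this is the level of an altered gene. Cd14 had separate groups, at 1028 FPKM in LysM and 829 FPKM in K2KO, and did not pass (limma adjusted p = 0.0630). Log2 fold changes were above 0 for 3 of the 10 markers and below 0 for 7. After the GC and length correction Mertk and Lyz2 no longer passed (limma adjusted p = 0.0505 and 0.0659). C1qa still passed, at -0.75 (limma adjusted p = 0.0115). With a library left out, Lyz2 passed in 4 of 8 fits and C1qa in all 8. The 10 markers summed to 4702, 5142, 5471 and 5783 FPKM in LysM and to 3777, 3205, 3682 and 3988 FPKM in the libraries labelled K2KO, separate ranges of which C1qa was the largest part. The 9 neutrophil markers summed to 186, 267, 232 and 315 FPKM in LysM and to 175, 292, 227 and 306 FPKM in the libraries labelled K2KO, led by S100a9, with Camp lower. B cell markers summed to at most 5.44 FPKM and those of T and NK cells, dendritic cells, fibroblasts, mast cells and erythroid cells to at most 3.36 FPKM in each library. Osteoclast markers summed to 60.8 to 94.4 FPKM, mainly Ctsk and Acp5, with Calcr listed at 0. In bulk RNA fewer cells of a type and less RNA per cell cannot be told apart, and the part of the macrophage and neutrophil markers in the lysosomal differences was not tested.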

How the data were processed

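RNA-sequencing of BMDMs from 4 LysM and 4 K2KO mice was read from 1 deposited table of FPKM per gene, which the authors made from stranded total RNA libraries. The study's methods name TopHat2 and Cufflinks with mm10, whereas the submitters' processing notes list STAR, Cufflinks and Cuffdiff. Versions and use of strand in counting are not given in the sources used here. The labels and methods also name different RNA kits, and the labels mark the libraries as vehicle. Columns show genotype only and are numbered from 0, so none was tied to one mouse. FPKM give no read counts. Relative depth, estimated from the steps between low values, ran from 0.940 to 1.46 times that of LysM0, so low genes are the least precise.

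FPKM were analysed as log2(FPKM + 0.1), with genes averaging at least 1 FPKM, by limma 3.58.1 in R 4.3.3 (trended moderation, Benjamini-Hochberg adjustment over 10920 genes). Genes with an adjusted p below 0.05 and a log2 fold change beyond 0.26 in either direction were taken as differentially expressed. Klf2 was also tested by an exact two-sided permutation test (p = 0.429, and 0.0286 is the smallest that 4 against 4 allows). The fit was checked on simulated data, and no result given here rests on that check.

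The members and lists were chosen with earlier results of these data known. Values in every library were to be given for members that passed with separate groups and for the 3 most abundant, and up to 4 genes with the smallest p per other list, plus Tfeb, Tfe3, Mitf and Tfec. Hexa, Man2b2, Lamp2, Laptm5, Igf2r, Lipa, Vps26a, Vps29, Ap1s1, Lyz2, C1qa and other genes named beyond these were picked with their values known. Alternatives were other pseudocounts, filters, scalings and tests, a loess correction for GC content and transcript length (span 0.3), a replicate block and leaving out each library. Upper-quartile scaling over tested genes was added after seeing the data. Positions and transcripts are those of GENCODE on GRCm38.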

Additional observations from a re-analysis of the deposited data

Results flagged for a closer look

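Within a genotype, 4 of the 80 groups of 4 values (40 genes in 2 genotypes) held a library far from the other 3, and chance gives about 1 in 20 such groups, that is 4 of 80. Lamp2 was at 193 FPKM in LysM2 beside 188 FPKM in the other LysM libraries. Lamp2 was also at 193 FPKM in K2KO3, beside 228 to 230.0 FPKM in the other K2KO libraries. Cd63, a tetraspanin of late endosomes, was at 736 FPKM in K2KO0 beside 861 to 869 FPKM in the others. Ppt1, the palmitoyl-protein thioesterase, was at 34.1 FPKM in LysM3 beside 36.9 to 37.1 FPKM.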

How the results depend on the processing

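Of all genes tested, 2014 were differentially expressed, against 483 without a filter, 746 with ordinary least squares, 1017 with the GC and length correction and 879 with that correction and a replicate block. The 7 lysosomal genes became 2, 4, 6 and 4, and the 25 genes of the other lists became 6, 10, 12 and 10. With a library left out, the counts ran from 337 (without LysM3) to 2837 (without K2KO3) over all genes, from 2 to 9 for the lysosomal genes and from 3 to 28 for the other lists. Genes over 1.5 times fewer passed without LysM1, LysM2, LysM3, K2KO0, K2KO1 or K2KO2 (736, 1030, 337, 706, 726 and 496). The cause of these shifts was not tested. Of the genes that passed, 53.3% were higher, against 64.1% with upper-quartile scaling over tested genes and 46.1% with that over listed genes above 0.

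Signs turned for genes that had not passed. With the GC and length correction, alone or with the block, the log2 fold change was 0.068 for Klf2, 0.118 for Cd68, 0.078 for Tfeb and -0.000304 for Mitf. Quantile normalization gave 0.286 for Cd68, 0.0601 for Grn, 0.0915 for Hexa, 0.0754 for Laptm5 and 0.146 for Npc2, among others. Upper-quartile scaling over tested genes gave 0.00102 for Cd68. The numbers that end the column names were no sign of pairing, since same-numbered libraries had correlations of -0.0702, 0.0203, 0.0729 and -0.057, and only number 2 correlated best with its own. With the replicate block alone 6 lysosomal genes, 25 of the other lists and 2057 of all genes passed. The Klf2 log2 fold change stayed at -0.18, which a block with every number in both groups cannot move. Its limma adjusted p was 0.140, beside 0.460 without the block.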
